A study of Mus musculus with 24 samples.

Results

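The cytosolic ribosomal protein genes are the 94 protein-coding genes of the brain RNA table, of 54532 genes in all, whose names begin with Rpl, Rps or Rplp followed by a number, or that are named Rpsa. Ribosomal S6 kinase genes (Rps6k) were left out. The name rule gave 56 genes of the large subunit series, 35 of the small subunit series including Rpsa, and the 3 P-stalk genes. The rule took in 8 genes with a pseudogene name (-ps) that the annotation calls protein-coding, the retrocopy Rps27rt, several paralogues of known subunits, and Rps19bp1, which carries the name of a subunit it binds and is no subunit itself.

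RNA from brain hemispheres of 24 male wild type C57Bl6 mice, 8 to 12 weeks old, was sequenced in 4 groups of 6. Vehicle mice received saline and angiotensin II mice received 0.7 mg/kg per day of the pressor peptide angiotensin II, each for 2 weeks from an osmotic minipump under the skin. The other two groups received the same infusions with human amnion epithelial cells (AEC), from donated placentae and given into the tail vein after the pump was placed, where the first 2 groups received saline. The comparisons ask whether the infusion, the cells, or both together altered the brain transcriptome. All 4 groups carry the same genotype and the same surgery, and each library holds the RNA of all cells in the tissue, so fewer cells of a type and less RNA per cell cannot be told apart.

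Each cytosolic ribosome has a large and a small subunit, and nearly every ribosomal protein is present once in each ribosome, so cells need the different proteins in matched amounts. Many of their mRNAs begin with a C followed by an unbroken stretch of pyrimidines, the terminal oligopyrimidine (TOP) tract, through which the growth kinase mTORC1 and the RNA-binding protein Larp1 adjust their translation together. Most ribosomal protein genes have also left retrocopies in the genome, intronless copies of the mRNA that are mostly pseudogenes and can be nearly identical to their parent in sequence.

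A minority of the annotated starts showed the tract. RefSeq promoter windows (GRCm38.p6, 250 bases before to 50 after the annotated start) were matched by symbol for 66 of the 94 genes. Of these, 14 (21.2%) started at a C that opened a run of at least 5 pyrimidines, against 2.64% of 16431 other protein-coding genes. A tract was counted only from the annotated start base itself, so the share does not give how many of the mRNAs carry a TOP tract. A run of at least 10 pyrimidines lay between 20 bases before and 30 after the start in 25 of the 66 (37.9%), against 10.02% of the other genes. The 6 windows below were chosen to show tracts of different length, among them that of Rps10 and those of Rps27 and its copy Rps27rt, which return in the results. Each holds 10 bases before and 20 after the start, with the tract from the start on in capitals.
Rpl15, chr14:18270967-18270996, minus strand: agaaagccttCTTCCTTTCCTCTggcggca
Rpl35, chr2:39005112-39005141, minus strand: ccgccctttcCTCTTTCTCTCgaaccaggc
Rps10, chr17:27635225-27635254, minus strand: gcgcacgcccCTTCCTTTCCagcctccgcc
Rps6, chr4:86857348-86857377, minus strand: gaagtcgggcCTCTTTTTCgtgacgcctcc
Rps27, chr3:90213629-90213658, minus strand: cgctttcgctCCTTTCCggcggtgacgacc
Rps27rt, chr9:114982720-114982749, minus strand: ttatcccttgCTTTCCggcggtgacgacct
The tract is 13 bases long in Rpl15 and 9 in Rps6. The start of Rps27rt lies 1 base inside the Rps27 mRNA, and the next 38 bases are identical in the 2 genes, while only 11 of the 60 bases before it are equal.

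Letters around the start were searched on both strands over the whole window, from 250 bases before to 50 after it. A gene was counted when any of its windows held them. CCGGAAG, a core of ETS-family sites, was found in 26 of the 66 genes (39.4%) and in 13.2% of the other protein-coding genes. AAGATGG, which YY1-type sites contain, was found in 10 (15.2%) against 7.24%. TATAAA was found in 7 (10.6%) against 14.3%. A match of letters is a description of the window and does not show that a factor binds there.

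Rplp1, a P-stalk protein that helps to recruit elongation factors to the ribosome, had the highest level of the 94 genes (chr9:61913284-61914542 in GRCm38). Levels are given as FPKM (fragments scaled to gene length and to library depth). The order of genes is on this scale and depends on the length used, as described further on. Rplp1 ranged from 734 to 1492 FPKM over the 24 mice, with a mean of 987, and made up 9.67% of the summed FPKM of the 94 genes. It was the one high-level gene whose lowest mouse stood above the highest mouse of the next gene, Rps15. The other stalk proteins were lower, with means of 148 FPKM for Rplp0, which anchors the stalk, and 75.3 FPKM for Rplp2.

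Among the small subunit genes Rps15 was highest, with 359 to 727 FPKM and a mean of 476. Rps3a1 followed with a mean of 341 FPKM and Rps29 with 311 FPKM. Rps6, the subunit that S6 kinases phosphorylate, ranged from 152 to 247 FPKM. The mean level was at least 100 FPKM in 19 of the 35 genes of the small subunit series, and from 10 to 100 FPKM in 15.

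Rpl36 led the large subunit genes with 242 to 559 FPKM and a mean of 360. Rpl41, which encodes one of the smallest known proteins, had a mean of 296 FPKM, and Rpl4, part of the wall of the exit tunnel, 265 FPKM. Neighbours in this order did not differ beyond their spread. Rpl36 was above Rps3a1 in 17 of 24 mice and Rps29 above Rpl41 in 18 of 24. In the 56 genes of the large subunit series 18 had a mean of at least 100 FPKM, 26 lay from 10 to 100 FPKM, 2 from 1 to 10 FPKM, 7 below 1 FPKM and 3 at 0.

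The order depends in part on the gene length that the authors divided by, which counts sequence outside the main mRNA. The length used was 6270 bases for Rps15a, whose principal mRNA has 640 bases in GENCODE M21, and the median ratio of both lengths was 2.27 over the 92 genes with such an mRNA. With fragments divided by the principal mRNA, Rplp1 stayed first and Rpl41 moved from rank 6 to 2. Rps15a moved from rank 76 to 35, and Rps27rt fell from rank 19 to 64.

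**Figure D1:**
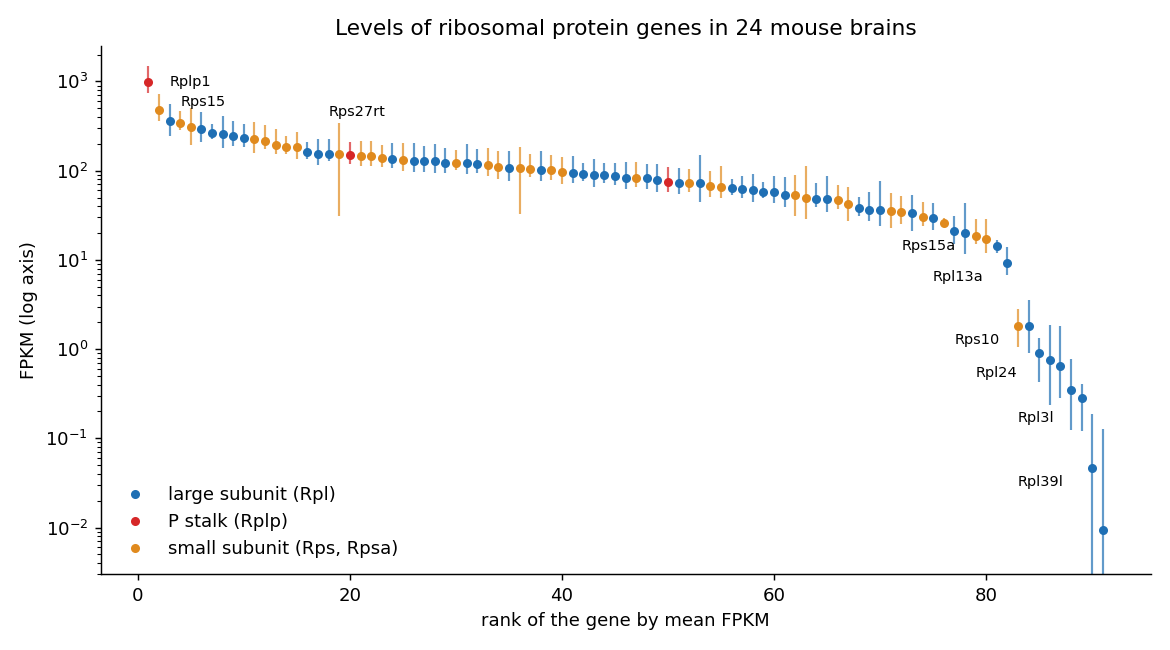
Mean FPKM (points, log axis) of the 91 ribosomal protein genes with any read, in order of level, with vertical lines from the lowest to the highest of 24 mice. Lines that reach the lower edge include mice at 0. Levels decline gently from Rplp1 at a mean of 987 FPKM to Rpl13a at 9.29 FPKM and then fall steeply.

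Below 10 FPKM the genes were mostly paralogues and retrocopies. Rpl3l, the striated muscle paralogue of the peptidyl transferase centre protein Rpl3, ranged from 0.121 to 0.409 FPKM, against 136 to 208 FPKM for Rpl3. Rpl39l, a paralogue known from the testis, had at most 3 reads in any mouse, against a mean of 60.7 FPKM for Rpl39. Rpl10l, another testis paralogue, and the pseudogene-named Rpl36-ps4 and Rpl9-ps1 had 0 reads in all 24 mice. Rpl13a-ps1 had at most 2 reads in any mouse, so it cannot be told from 0 at this depth.

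Some other paralogues had higher levels. Rpl22l1, the paralogue of Rpl22, had a mean of 21.2 FPKM against 37.7 FPKM for Rpl22. Rps27l, a target of p53, had a mean of 17.02 FPKM, and Rpl7l1 14.2 FPKM against 92.1 FPKM for Rpl7. Rpl36al, the autosomal paralogue of X-linked Rpl36a, was low, with a mean of 0.344 FPKM against 57.4 FPKM for Rpl36a. Rps4l, the paralogue of X-linked Rps4x, is annotated as a pseudogene and is not one of the 94 genes.

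Rps10 and Rpl24 were unlike their partners in the ribosome. Rps10, a protein of the head of the small subunit, had a mean of 1.83 FPKM and 52 to 166 reads per mouse, and Rpl24, which forms a bridge between the subunits, had a mean of 0.893 FPKM and 9 to 25 reads. Both were named after their values were seen, as were the copies described next.

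The reads of Rps10 and Rpl24 were exceeded by those on retrocopies. Copies were taken as genes that aligned to the coding sequence of a member with at least 90% identity over at least 80% of its length. There were 942 such copies, 934 of them pseudogenes, and 78 of the 84 members searched had at least 1. Copies held 92.7% of the reads on Rps10 and its copies together, and 78.0% for Rpl24. The sums were unlike in level. Rps10 with its copies ranged from 46.7 to 88.7 rpm (reads scaled to library depth) over the mice. Rpl24 with its copies ranged from 2.98 to 6.37 rpm, so it stayed low with the copies found added. Rps10-ps2 (chr16:20822145-20822640), 99.0% identical to the Rps10 coding sequence, had 718 to 1693 reads per mouse, more than Rps10 in all 24 mice.

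The same held for Rpl17, whose protein lines the exit tunnel, and for Rpl21. Copies held 78.5% of the reads for Rpl17, mostly Rpl17-ps10 and Rpl17-ps3, and 53.2% for Rpl21, mostly Rpl21-ps15. In all, copies held at least 10% of the reads in 22 families and at least 50% in these 4. Because parent and copy share nearly all of their sequence, the division of reads between them is uncertain. How the authors' counting treated reads that fit both is not given in the sources used here.

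Rps27 and Rps27rt are the extreme case, because their coding sequences are the same in all 255 bases. The paralogue Rps27l differs from them at 61 bases (76.1% identity). The coding sequences are shown so that both relations can be seen. They come from GENCODE M21, and capitals mark the 61 bases that differ.
Rps27 and Rps27rt: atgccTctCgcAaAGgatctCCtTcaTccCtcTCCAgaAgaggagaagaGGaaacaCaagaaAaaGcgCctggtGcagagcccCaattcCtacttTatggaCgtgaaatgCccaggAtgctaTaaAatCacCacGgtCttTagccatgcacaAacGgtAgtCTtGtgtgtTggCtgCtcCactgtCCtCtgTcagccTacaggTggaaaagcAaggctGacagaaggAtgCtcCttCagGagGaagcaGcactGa
Rps27l: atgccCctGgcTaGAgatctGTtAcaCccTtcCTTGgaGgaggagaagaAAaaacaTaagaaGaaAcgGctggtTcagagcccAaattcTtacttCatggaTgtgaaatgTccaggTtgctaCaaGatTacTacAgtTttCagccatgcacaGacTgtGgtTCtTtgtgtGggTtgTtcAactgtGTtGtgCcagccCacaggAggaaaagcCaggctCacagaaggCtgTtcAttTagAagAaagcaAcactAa

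Reads on Rps27 and Rps27rt moved against each other from mouse to mouse. Rps27 ranged from 36.1 to 191 rpm (reads scaled to library depth), a 5.30-fold span, and Rps27rt from 12.1 to 132, a 10.9-fold span. Their sum ranged from 130 to 269 rpm, a 2.07-fold span. The share on Rps27rt was 9.22% in the lowest mouse, 26.7% at the median and 76.0% in the highest. Rps27rt had the higher FPKM in 12 of 24 mice, but FPKM divides it by 374 bases and Rps27 by 1043. These 12 are therefore not all mice with more reads on Rps27rt. The highest shares were in vehicle + AEC replicate 2 and angiotensin II replicate 4 (73.8%), and the lowest in vehicle + AEC replicate 4, so mice of 1 group stood at both ends.

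**Figure D2:**
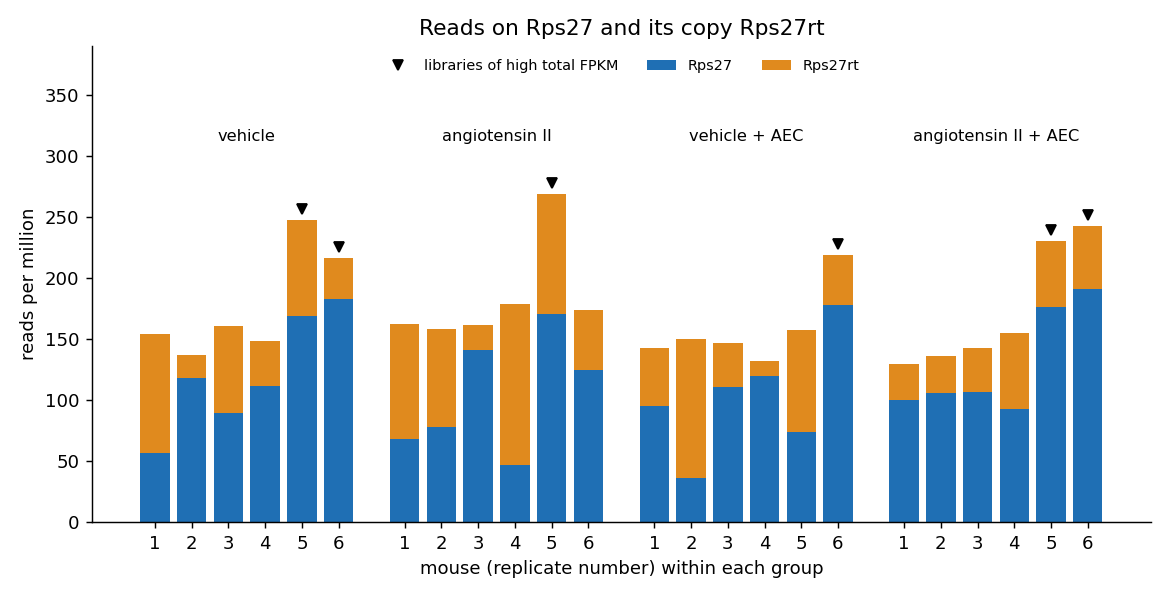
Reads in rpm (scaled to library depth) on Rps27 (blue) and Rps27rt (orange), stacked, for each of 24 mice in 4 groups of 6, with triangles over the 6 libraries of high total FPKM. The division between both genes varies widely within groups, while the sum lies from 130 to 179 in the unmarked libraries and from 216 to 269 in the marked ones.

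Rps27rt had the widest spread of the members with a mean of at least 1 FPKM, with a coefficient of variation within groups of 53.7%, and Rps15a the narrowest at 6.63%. The median over those 84 members was 26.9%. Adding the reads of copies to their parent lowered the coefficient of variation within groups of some members, taken here on rpm instead of FPKM. It fell from 40.7% to 24.5% for Rps27 and from 36.2% to 23.7% for Rpl17. For Rpl21 it fell from 33.9% to 25.5% and for Rpl30 from 36.4% to 26.2%. Rps27a, which encodes ubiquitin fused to its subunit, had a coefficient of variation within groups of 50.2%, at 28.8 to 111 FPKM.

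Most of the spread of the other members was shared. The 24 libraries fell into 6 with a total FPKM of 338334 to 348597 and 18 with 277116 to 298301, separated by the widest gap in that total. Each group contributed to the 6, which comprised replicates 5 and 6 of vehicle and of angiotensin II + AEC, replicate 5 of angiotensin II and replicate 6 of vehicle + AEC. The labels name no batch. Depth overlapped between the sets. It was 16536449 to 25308700 fragments for the high set and 16645396 to 22464979 for the rest. Without the 94 genes the total FPKM still separated them, at 324684 to 334375 against 268803 to 288304.

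The share of all fragments on the 94 genes was 2.05 to 2.201% for the high set and 1.26 to 1.53% for the remaining 18. Of the 84 members with a mean of at least 1 FPKM, 82 to 84 were above their own median over mice in each of the 6, and 2 to 74 in each of the 18. In 74 of the 84 all 6 libraries were above all 18, as in 22.1% of 13649 genes of any type at that level. The sets were formed from the data, so these are descriptions and no test was made. The ratio of mean FPKM between both sets had a median of 1.64 in the large subunit series and 1.65 in the small subunit series and in the P stalk.

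**Figure D3:**
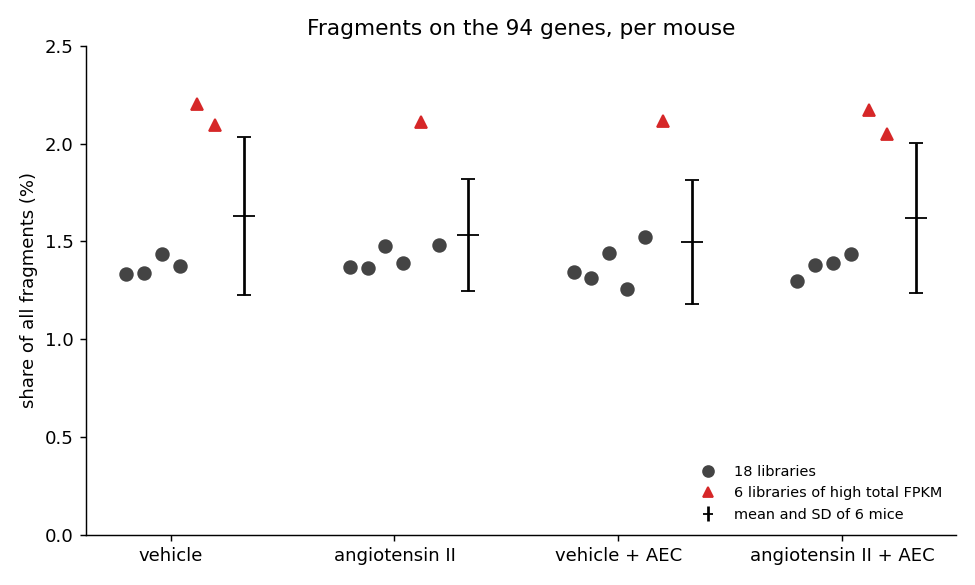
Share of all fragments on the 94 genes in each mouse (points, percent), by group, with triangles for the 6 libraries of high total FPKM and bars for the mean and SD of 6 mice. Triangles lie at 2.05 to 2.201% in every group and circles at 1.26 to 1.53%, with no overlap.

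A few members left this common pattern. The ratio was 1.06 for Rps27rt, 1.12 for Rps15a and Rpl7l1, and 1.21 for Rpl17. It was 1.91 for Rps27a, 1.95 for Rpl30 and 1.98 for Rps27. On the scale of reads over total fragments, adding copies took the ratio from 1.91 to 1.57 for Rps27, from 1.16 to 1.57 for Rpl17 and from 1.88 to 1.63 for Rpl30. It left Rps27a at 1.80 (1.84 before) and Rps15a at 1.09 and Rpl7l1 at 1.08 (both 1.08 before), against a median of 1.58 over 79 members with copies added.

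Other short mRNAs were also higher in the 6 libraries. Among 83 members with a mean of at least 1 FPKM and a principal mRNA, all had a ratio above 1, with a median of 1.64. Among 11962 other protein-coding genes 5583 had, with a median of 0.964. Below 500 bases the medians were 1.69 for members and 1.59 for other genes, from 500 to 750 bases 1.66 and 1.54, and from 1000 to 2000 bases 1.58 and 1.251. At 4000 bases or more, where no member lay, the other genes had a median of 0.722.

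**Figure D4:**
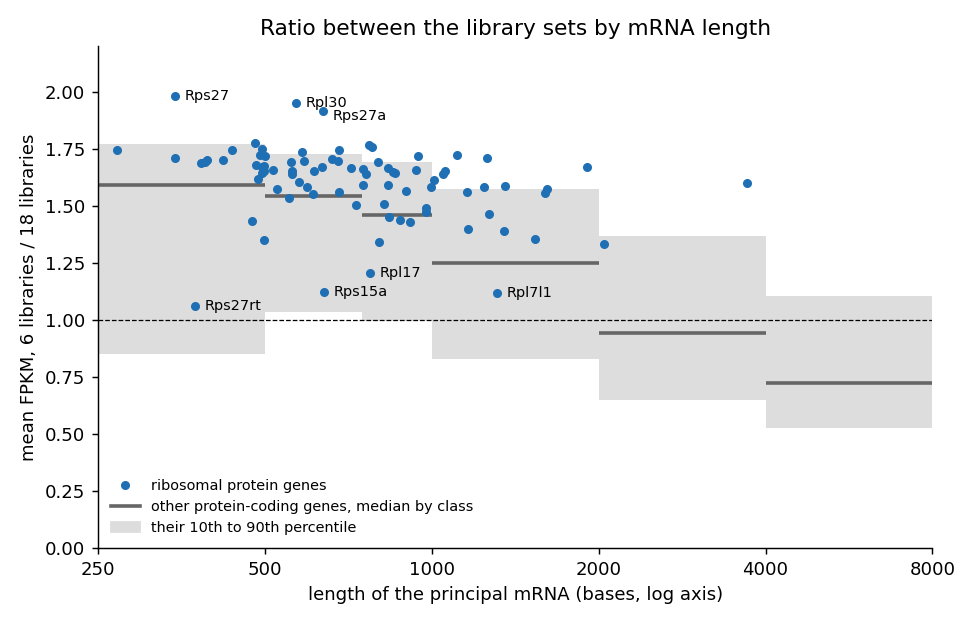
Ratio of mean FPKM between the 6 and the 18 libraries against the length of the principal mRNA in bases (log axis) for ribosomal protein genes (points) and for other protein-coding genes (grey lines, median by length class, and bands, 10th to 90th percentile). All points lie above 1, while the grey median declines from 1.59 below 500 bases to 0.722 at 4000 bases or more.

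Nuclear subunits of the respiratory chain, another set of short and abundant mRNAs, had a median ratio of 1.61, with 70 of 74 above 1, and mitochondrial ribosomal proteins 1.42, with 72 of 77. For snoRNA host transcripts, where an mRNA length was known only for coding transcripts, the median ratio was 1.44 (13 of 16 above 1). Their summed FPKM was mostly lower in the high set, at 261 to 290 against 285 to 322 in the rest. Lists of longer mRNAs were on both sides. The median was 1.40 for other mRNAs with a TOP tract (16 of 20) and 1.34 for elongation and termination factors (8 of 12). It was 1.03 for ribosome assembly factors (22 of 43), 0.972 for initiation factors (17 of 37), 0.913 for mTORC1 and TOP regulators (7 of 19) and 0.873 for S6 kinases (4 of 9). The share of mitochondrially encoded genes was 6.17 to 6.85% in the high set and 4.79 to 5.75% in the rest. Marker sums moved with the sets for some cell types. Oligodendrocyte markers summed to 979 to 1210 FPKM against 799 to 962, with 3 of 4 higher on average in the 6 libraries. Choroid plexus markers, mostly Ttr, summed to 836 to 1122 FPKM against 353 to 770, with 3 of 4 higher. Endothelial markers summed to 69.8 to 86.7 FPKM against 39.9 to 57.3, with 1 of 3 higher. The other sums overlapped, among them those of neurons (483 to 513 against 493 to 542 FPKM), astrocytes (149 to 176 against 137 to 159), microglia (39.4 to 47.8 against 38.0 to 42.8), erythroid cells (118 to 192 against 31.7 to 178) and neutrophils (5.08 to 36.8 against 5.95 to 45.0). No marker of these lists was at 0 in any mouse, and their part in the level of the ribosomal protein genes was not tested.

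No difference beyond the spread between mice was found in the ribosomal protein genes after angiotensin II. The share of fragments was 1.34, 1.40 and 2.201% (lowest, median, highest) in vehicle mice and 1.36, 1.43 and 2.11% after angiotensin II. The means were 1.63 ± 0.405% and 1.53 ± 0.287% (SD, n = 6), with p = 0.85 in a two-sided exact permutation test, and the groups overlapped. Rplp1 was 1042 ± 317 FPKM in vehicle and 949 ± 207 FPKM in angiotensin II mice.

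Genes were tested with limma on log2(FPKM + 0.1) among 27286 genes above 0 in at least 6 mice, of which 90 were members. The 4 left out were Rpl10l, Rpl36-ps4, Rpl9-ps1 and Rpl13a-ps1. After Benjamini-Hochberg adjustment no gene passed 0.05 in any of the 5 comparisons, so 0 members and 0% of genes were called, and voom on recovered reads called 0 as well. For angiotensin II against vehicle, 2 of 90 members had an unadjusted p under 0.05, near the 2.21% of all genes. Of the members 82 were lower and 8 higher, while 44.6% of all genes were lower. The median log2 fold change was -0.076, against 0.021 over all genes. The members of a library move together, so these are not 90 independent directions.

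Rpl36al and Rpl27-ps3 were the 2 members. Rpl36al was 0.282, 0.369 and 0.774 FPKM (lowest, median, highest) in vehicle mice and 0.159, 0.263 and 0.310 FPKM after angiotensin II. All 6 angiotensin II mice were below the vehicle mean, but the groups overlapped. The log2 fold change was -0.59 ± 0.25 (SE), with p = 0.0251 and adjusted p = 0.994 in limma with Benjamini-Hochberg adjustment, and p = 0.0130 in the exact permutation test. These values rest on 3 to 18 reads per mouse, and the copy Rpl36a-ps3, 99.7% identical, had 2 to 19 reads.

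Rpl27-ps3 is a retrocopy whose coding sequence is identical to that of Rpl27, which had a mean of 94.9 FPKM. It was 1.36, 2.11 and 3.55 FPKM in vehicle mice and 1.16, 1.31 and 2.02 FPKM after angiotensin II. The log2 fold change was -0.54 ± 0.25 (SE), with p = 0.0429 and adjusted p = 0.994 in limma, and p = 0.0563 in the exact permutation test. Both highest vehicle mice were in the set of 6 libraries, and the gene had 9 to 43 reads per mouse. Rps27a came next, at 62.9 ± 30.1 FPKM in vehicle and 41.2 ± 11.5 FPKM in angiotensin II mice (SD, n = 6), with a log2 fold change of -0.52 ± 0.33 (SE) and exact permutation p = 0.136.

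The direction of the members changed when the library sets were taken into account. Vehicle held 2 of the 6 libraries and angiotensin II held 1. With the library set as a term in limma the median log2 fold change was 0.037, with 77 of 90 members higher, and within the 18 libraries it was 0.055, with 79 higher. Over the 5 comparisons 47.2 to 51.9% of all genes were lower with the term, and 48.3 to 50.6% within the 18 libraries. With that term 4 members had an unadjusted p under 0.05, against 3.46% of all genes. They were Rpl36al and Rpl27-ps3, lower, and Rpl7a and Rpl9-ps6, higher, and all had an adjusted p of 1. Within the 18 libraries no member had an unadjusted p under 0.05, against 3.86% of all genes. The share of fragments there was 1.37% in 4 vehicle and 1.42% in 5 angiotensin II mice. In the set of 6 the 2 vehicle mice had a mean of 2.15% and the 1 angiotensin II mouse 2.11%, too few for a comparison of their own.

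The comparison of angiotensin II + AEC with angiotensin II found no difference beyond that spread either. It shares the angiotensin II mice with the comparison before, and the later ones likewise share groups, so their values are given side by side only. The share of fragments was 1.30, 1.41 and 2.17% in angiotensin II + AEC mice and had a mean of 1.62 ± 0.384%, against 1.53% in angiotensin II mice (exact permutation p = 0.85). None of the 90 members had an unadjusted p under 0.05 in limma, against 2.54% of all genes. Of the members 81 were higher, with a median log2 fold change of 0.069, against -0.017 over all genes, of which 54.7% were lower. With the library set as a term the median was -0.040, with 15 members higher, and none passed, against 3.90% of all genes. Within the 18 libraries the median was -0.0485 and 2 members passed at an unadjusted p, Rpl36al, higher, and Rpl13a, lower, against 4.61% of all genes.

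The 3 members with the lowest p in this comparison were Rps10, Rpl21 and Rps27rt. Each has a near-identical copy or parent, and 78 of the 84 members searched had at least 1 copy. Copies held at least 50% of the reads in only 4 families, among them those of Rps10 (92.7%) and Rpl21 (53.2%). The part of the division of reads in these differences was not tested. Rps10 was 1.07, 1.58 and 2.01 FPKM in angiotensin II mice and 1.67, 2.00 and 2.54 FPKM with cells. All 6 mice with cells were above the mean without, but the groups overlapped (log2 fold change 0.38 ± 0.20 SE, limma p = 0.0662, exact permutation p = 0.0563). Rpl21 had a log2 fold change of 0.46 ± 0.26 (SE) and exact permutation p = 0.113. Rps27rt had a log2 fold change of -0.69 ± 0.49 (SE) and exact permutation p = 0.158.

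In vehicle mice the cells gave a share of 1.26, 1.39 and 2.12%, with a mean of 1.499 ± 0.318% (exact permutation p = 0.57 against vehicle). Rpl27-ps3 was the 1 member of 90 with an unadjusted p under 0.05 in limma, against 2.41% of all genes. It was 0.911, 1.31 and 3.18 FPKM with cells, and 5 of 6 of these mice were below the vehicle mean. The log2 fold change was -0.57 ± 0.25 (SE), with p = 0.0314 and adjusted p = 0.995 in limma, and p = 0.0931 in the exact permutation test. Rps27a (log2 fold change -0.44, exact permutation p = 0.255) and Rpl30 (-0.30, p = 0.242) were next. Of the members 84 were lower, with a median log2 fold change of -0.12, against 0.0085 over all genes, of which 47.6% were lower. With the library set as a term the median was 0.0012, with 47 of 90 members higher, and 1 member, again Rpl27-ps3, had an unadjusted p under 0.05, against 3.54% of all genes. It was also the 1 member within the 18 libraries, against 4.18% of all genes.

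Between both groups with cells, angiotensin II + AEC against vehicle + AEC, none of the 90 members had an unadjusted p under 0.05 in limma, against 2.66% of all genes. The exact permutation p for the share of fragments was 0.60. Of the members 84 were higher, with a median log2 fold change of 0.11, against -0.0092 over all genes, of which 52.8% were lower. The set of 6 libraries holds 2 angiotensin II + AEC mice and 1 vehicle + AEC mouse. With the library set as a term the median was -0.0072, with 36 members higher, and 1 member, Rps7, had an unadjusted p under 0.05, against 4.01% of all genes. Within the 18 libraries the 1 member was Rpl27-ps3, against 4.27% of all genes. The lowest p without the term were those of Rpl27-ps3 (log2 fold change 0.36, exact permutation p = 0.219), Rpl21 (0.33, p = 0.301) and Rpl35a (0.26, p = 0.279).

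The interaction asks whether the effect of the cells differed between angiotensin II and vehicle mice. Again 1 member of 90, Rpl27-ps3, had an unadjusted p under 0.05 in limma, against 2.54% of all genes. Its interaction was 0.89 ± 0.35 (SE) on the log2 scale, with an adjusted p = 0.931 in limma with Benjamini-Hochberg adjustment. The median over members was 0.19, with 85 of 90 above 0, against -0.026 over all genes, of which 54.1% were below 0. With the library set as a term the median was -0.040, with 20 members above 0, and 3 members had an unadjusted p under 0.05, against 3.41% of all genes. These were Rpl27-ps3 (0.67), Rpl30 (0.33) and Rpl7a (-0.30), all with an adjusted p of 1. Within the 18 libraries the 2 members were Rpl27-ps3 and Rpl36al, against 4.20% of all genes. Without the term Rpl30 (0.63 ± 0.36 SE) and Rpl36al (0.48 ± 0.35 SE) came after Rpl27-ps3.

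**Figure D5:**
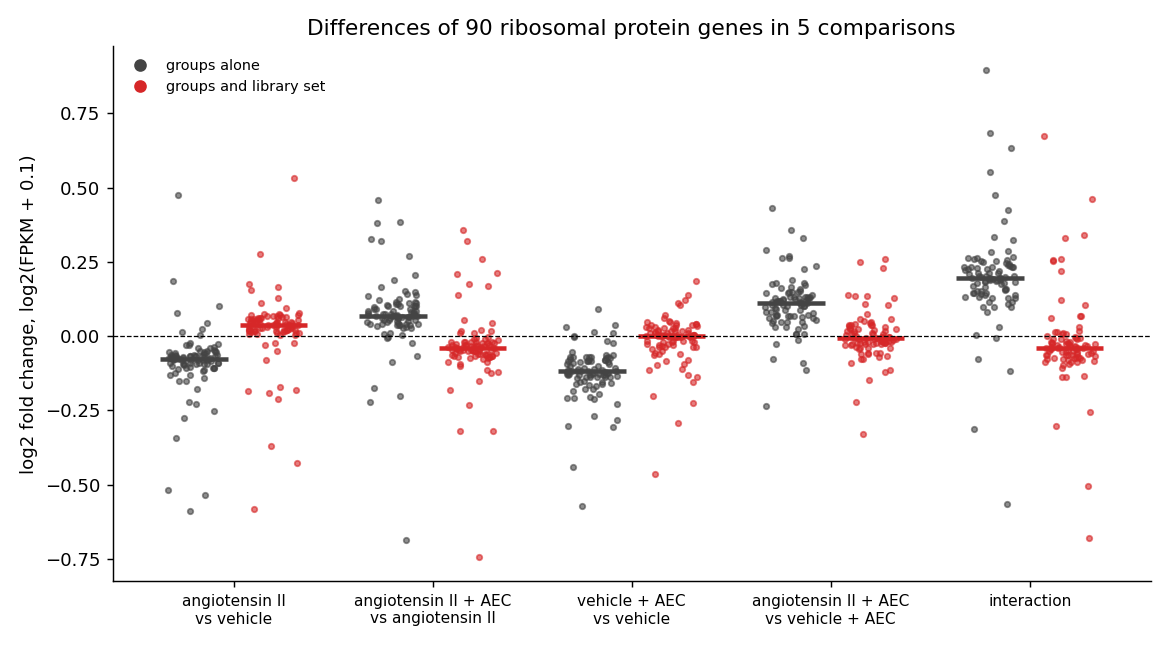
Log2 fold change on the log2(FPKM + 0.1) scale of each of 90 ribosomal protein genes (points) in 5 comparisons, fitted with the groups alone (grey) and with the library set as a further term (red), with bars at the medians. In each comparison the grey median and the red median lie on opposite sides of 0, as with -0.076 and 0.037 for angiotensin II against vehicle.

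Genes that act with the ribosome showed as few calls. Without the library set as a term, no gene of the following lists had an unadjusted p under 0.05 in any of the 5 comparisons. They were 12 elongation and termination factors, 37 initiation factors and 20 other mRNAs with a TOP tract. Also among them were 10 S6 kinases and 17 tested snoRNA host transcripts. Of all genes 2.21 to 2.66% passed. With the term each of these lists had 0 or 1 such gene per comparison, against 3.41 to 4.01% of all genes. Of 43 ribosome assembly factors 1, Ebna1bp2, was lower for angiotensin II against vehicle (log2 fold change -0.11 ± 0.052 SE, limma adjusted p = 0.994) and higher in the interaction. Both were at an unadjusted p under 0.05 (2.21 and 2.54% of all genes passed). Of 19 mTORC1 and TOP regulators 1, Mycn, was higher at that threshold for angiotensin II + AEC against angiotensin II (0.36 ± 0.16 SE, limma adjusted p = 1, 2.54% of all genes passed). With the library set as a term the assembly factors and these regulators each had 0 or 1 such gene per comparison. Of 77 mitochondrial ribosomal proteins 1 was higher and 1 lower at an unadjusted p under 0.05 for angiotensin II against vehicle (2.21% of all genes passed), 1, Mrpl1, was lower for angiotensin II + AEC against angiotensin II (2.54%), and 1 was above and 1 below 0 in the interaction (2.54%). For angiotensin II against vehicle Mrpl24 had the lowest p (-0.17 ± 0.067 SE, limma adjusted p = 0.994). With the library set as a term 1 to 4 of the 77 mitochondrial ribosomal proteins passed per comparison, against 3.41 to 4.01% of all genes.

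The nuclear respiratory chain subunits had no call in any of the 5 comparisons and medians near those of the ribosomal protein genes. Their median log2 fold change was -0.081 for angiotensin II against vehicle and 0.21 in the interaction. With the library set as a term these were 0.017 and -0.0082. The initiation factors had medians of 0.018 and -0.024 in the same comparisons without the term. Neutrophil markers moved with the groups, with 2 of 4 higher at an unadjusted p under 0.05 in limma for angiotensin II against vehicle (2.21% of all genes passed) and 4 of 4 for angiotensin II + AEC against vehicle + AEC (2.66%). There was also 1 of 4, Camp, for angiotensin II + AEC against angiotensin II (2.54%, log2 fold change 1.57 ± 0.46 SE, limma adjusted p = 1) and in the interaction (2.54%). Their part in the values of the ribosomal protein genes was not tested. The share of fragments of a group and the levels of single genes in bulk tissue do not show whether ribosome number or translation differed, which was not measured here.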

How the data were processed

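The authors deposited FPKM values per gene and mouse, with gene names, types, GRCm38 coordinates and lengths. Their aligner, counting program and use of strand are not given in the sources used here. The members and lists were chosen with earlier results of these data known. Whole fragments were recovered from FPKM multiplied by length (100% whole within 0.01). Each group held 6 mice. Totals of 16536449 to 25308700 fragments set the precision, and 3 reads or fewer are not told from 0, for counting error only. limma 3.58.1 (R 4.3.3) fitted the 4 groups together to log2(FPKM + 0.1), with a trend on mean level and Benjamini-Hochberg adjustment, for genes above 0 in at least 6 of 24 mice. The fit was tested on simulated data in which genes varied independently and the library sets did not differ. That test therefore does not cover the shared movement of the members. The smallest p that the two-sided exact permutation test can give is 0.0022. Copies were found with blastn 2.17.0 in GENCODE M21 transcripts of annotated pseudogenes and of the members. Figures came from matplotlib 3.10.9, other steps from pandas 2.3.3 in Python 3.11.15. Genes named are the 5 highest and 5 lowest members, the 3 lowest p in each comparison, paralogue pairs, the widest and narrowest members, and the lowest p in other lists. Further genes (Rps10, Rpl24, Rpl17, Rpl21, Rps27, Rps27a, Rpl30 and their copies among them) were named after their values were seen. Alternatives were another pseudocount, no filter, a replicate block, median-ratio scaling, voom on recovered reads, the library set as a term, the 18 libraries alone, leaving out each mouse and, added after seeing the data, copies added to their parent. One further list of genes is not reported here.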

Additional observations from a re-analysis of the deposited data

Results flagged for a closer look

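The share of all fragments on the 94 genes stood apart in 1 mouse of 2 groups by Dixon's criterion for 6 values. It was 2.11% in angiotensin II replicate 5 and 2.12% in vehicle + AEC replicate 6, each the highest of its group and each the only library of its group in the set of high total FPKM. Of the 84 members with a mean of at least 1 FPKM, 69 had 1 mouse apart in the angiotensin II group, 56 in the vehicle + AEC group and 1 in the angiotensin II + AEC group, and every such mouse was in that set. Of 13649 genes of any type at that level, 3909 (28.6%), 4302 (31.5%) and 341 had 1 mouse apart in these 3 groups. Chance flags about 1 in 20 groups, and the members of a library are not independent of each other.

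Rpl27-ps3 differed between vehicle and angiotensin II mice in its response to the cells, by 0.89 on the log2 scale at an unadjusted p under 0.05 in limma. The result failed the correction over all genes (adjusted p = 0.931) and rests on 9 to 43 reads per mouse of a gene whose coding sequence is identical to that of Rpl27.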

How the results depend on the processing

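The median log2 fold change of the members changed sign in each of the 5 comparisons when the library set entered the fit, and again within the 18 libraries. It was 0.0369 and 0.0547 for angiotensin II against vehicle, -0.0395 and -0.0485 for angiotensin II + AEC against angiotensin II, 0.0012 and 0.0017 for vehicle + AEC against vehicle, -0.0072 and -0.0019 for angiotensin II + AEC against vehicle + AEC, and -0.0398 and -0.0503 for the interaction. Of 112 alternative values of the medians 14 changed sign. The other 98 moved by less than 0.333 log2, the within-group SD between mice of the median deviation of members. That SD is larger than each of the 5 medians of the main fit, so it cannot tell a stable median from one that moved. The replicate block leaves the medians unchanged by design. When 1 mouse was left out, the medians ranged from -0.1873 to 0.0259, from -0.0285 to 0.1748, from -0.2396 to -0.0132, from 0.0062 to 0.2294 and from 0.0863 to 0.3175 in the same order. The sign changed without vehicle replicate 5 (0.0259) or 6 (0.0098) in the first comparison, and without angiotensin II + AEC replicate 5 (-0.0285) or 6 (-0.0121) in the second.

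Counts of members with an unadjusted p under 0.05 were small under every alternative, and no member passed the adjusted threshold in any. With the replicate block they were 4, 2, 4, 3 and 4 in the order above, with the library set as a term 4, 0, 1, 1 and 3, and within the 18 libraries 0, 2, 1, 1 and 2. The share of all genes that passed was 3.48, 3.64, 3.80, 4.02 and 5.19% with the block, 3.46 to 4.01% with the term (3.41% for the interaction) and 3.86 to 4.61% within the 18. Adding copies to their parent gave 1 in the first comparison (2.21% of all genes), and no filter gave 2 in the third (2.51%). With 1 mouse left out the counts ranged from 0 to 2, from 0 to 2, from 0 to 1, from 0 to 1 and from 1 to 2. The first fell from 2 to 0 when replicate 5 of vehicle or replicate 1 of angiotensin II was absent, and to 1 without any of vehicle 3, 4 and 6 and angiotensin II 2, 3, 4 and 6. The third fell from 1 to 0 without vehicle replicate 5 or 6 or vehicle + AEC replicate 1, 2 or 5. The second rose to 2 without angiotensin II replicate 3 and to 1 without angiotensin II replicate 5 or 6 or angiotensin II + AEC replicate 3, the fourth to 1 without vehicle + AEC replicate 6, and the fifth to 2 without vehicle replicate 2, vehicle + AEC replicate 6 or angiotensin II + AEC replicate 1. The cause was not tested.

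The labels do not say that a replicate number marks a shared litter or day, so the replicate block is given only as an alternative. Correlations between mice of different groups were taken over all genes with a mean of at least 1 FPKM, members and others together. Deviations from the group means correlated at -0.22 to 0.80 between same-numbered mice (median 0.35, 28 of 36 over 0.1), against a median of 0.070 for different numbers. All 6 libraries of high total FPKM carry the number 5 or 6. The share of fragments had a mean of 1.57% over all mice, 1.55% with named subunits only and 1.64% with named pseudogenes. Low members such as Rpl36al and Rpl27-ps3 are limited by depth.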
